A study of Mus musculus with 16 samples.

Results

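The miR-322, miR-503, miR-450b and miR-542 cluster is a group of microRNA (miRNA) genes on the mouse X chromosome. Its 5 measured members were mmu-miR-322, mmu-miR-503, mmu-miR-450b-3p, mmu-miR-542-3p and mmu-miR-542-5p, out of 611 mouse miRNAs on the array. They were chosen by their scaled signal over the 5 groups, as neighbouring genes with a shared time course on all 16 arrays. Their values are therefore given as a description, without a test. Each passed the filter on low values (detection on all arrays of 1 or more groups), but miR-450b-3p did so through day 7 alone and miR-542-3p through day 7 and day 14, the groups in which they were high.

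The series followed the formation of a neointima, the layer that grows inside an artery after injury, in female ApoE-/- mice on a C57BL/6 background. All mice, controls included, lacked apolipoprotein E and so were prone to atherosclerosis, and the protocol names a western-type diet for the injured mice. Carotid arteries injured with a wire were collected at day 1 (n = 3, listed age 8 weeks), day 7 (n = 3), day 14 (n = 3) and day 28 (n = 4), and 3 uninjured carotid arteries were the control (listed age 6 to 8 weeks in these groups). From each artery 700 ng of total RNA was labelled with the dye Cy3 and hybridised to 1 Agilent miRNA array of the Sanger release 12 design. The model is a whole vessel, so a change in the number of cells of a type and a change in the miRNA per cell cannot be told apart.

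The headers placed the arrays on 2 slides. Slide 1 held day 1, day 7 and day 28 replicates 1 and 2, and slide 2 held the uninjured group, day 14 and day 28 replicates 3 and 4. Only the day 28 group ties the slides to each other, so the members' differences of day 1 or day 7 from uninjured are plotted with slide as a block too. Other values of those days against uninjured, such as those of second probes, markers and the nearest miRNAs, include any slide difference unless the block is named. The 75th percentile of the bright probes, which sets each array's scale, was 401 to 624.1 intensity units on the uninjured arrays but 816.2 to 1214 on those of day 7. Within a group, arrays correlated across the 321 tested miRNAs with r between 0.929 (day 14) and 0.996 (uninjured). Among marker miRNAs, miR-143 and miR-145 of smooth muscle and 1 of the 2 strands of miR-126 of endothelium were well above background on all arrays. miR-145* was well above background on 0 arrays. Also well above background on all arrays were 3 of 3 erythroid, 3 of 3 fat-associated, 3 of 4 striated muscle and 4 of 5 leukocyte miRNAs. These markers therefore do not tell a carotid artery from other tissue.

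A miRNA is cut from a hairpin precursor, of which the 5′ arm (5p), the 3′ arm (3p) or both can be kept, and it represses mRNAs that pair with its seed, bases 2 to 8. miRNA genes that lie close together can be made from a common primary transcript, after which processing and stability set the level of each mature strand. miR-322, called miR-424 in humans, and miR-503 belong to the extended miR-15/16 family, whose targets include cyclins and other cell cycle genes. Both have been studied in muscle differentiation and in the growth of vascular cells.

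In RefSeq annotation of GRCm38.p6 the locus held 7 miRNA hairpins within 6353 bases of the X chromosome, chrX:53047997-53054349, all read from the minus strand. Mir322 (chrX:53054255-53054349) came first in the direction of transcription. Mir503 (chrX:53053984-53054054) followed after a gap of 200 bases. Both lay inside the long non-coding RNA gene C430049B03Rik (chrX:53053112-53057190) together with Mir351. Mir542 (chrX:53049403-53049487) lay 3767 bases beyond Mir351 and outside that gene. It was followed by Mir450-2, Mir450-1 and Mir450b (chrX:53047997-53048078). The members thus came from 4 of the 7 hairpins, and the map of the locus by distance shows which strands were seen on the arrays.

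**Figure D1:**
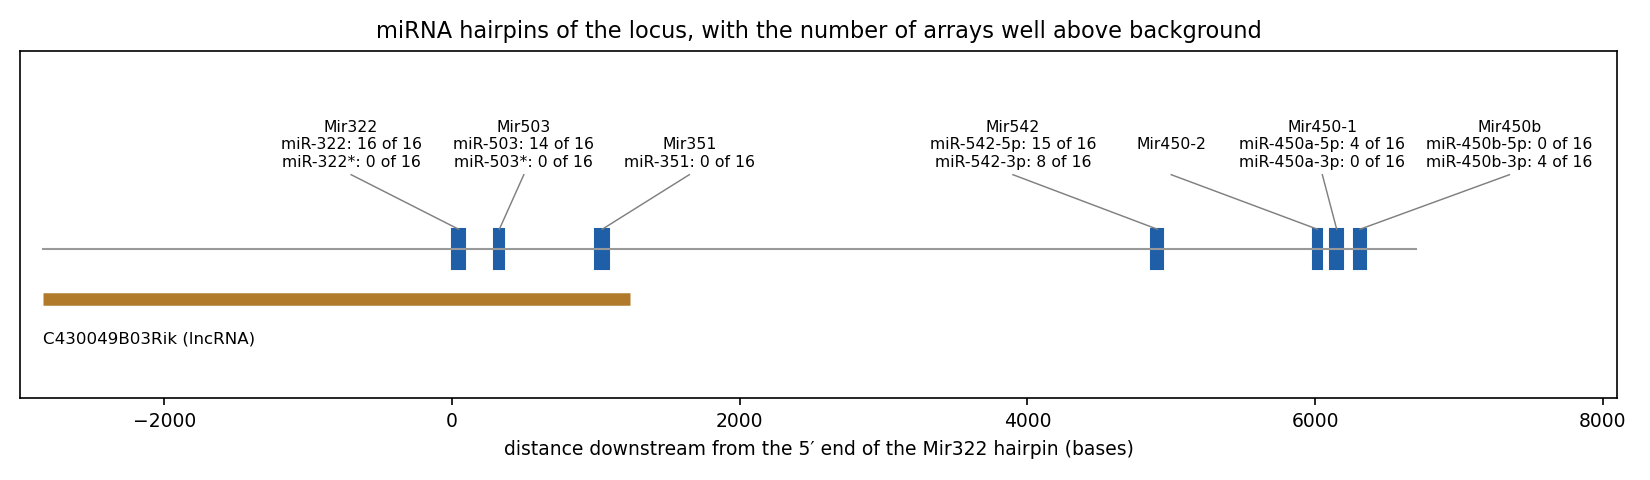
The 7 hairpins (blue) and the lncRNA gene C430049B03Rik (brown) by distance in bases from the 5′ end of the Mir322 hairpin, with the number of the 16 arrays on which each strand was well above background. Strands seen on at least 1 array came from both ends of the locus, with miR-322 on 16 arrays and miR-450b-3p on 4; no probe is listed for Mir450-2 separately.

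The mature members are shown because their seeds place them in different families, although they come from neighbouring hairpins. Sequences are RefSeq's, written 5′ to 3′ with the seed in capitals. All 5 members matched an entry, miR-322 and miR-503 as the 5p strand.

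miR-322: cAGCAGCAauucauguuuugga

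miR-503: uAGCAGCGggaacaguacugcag

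miR-450b-3p: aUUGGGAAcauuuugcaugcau

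miR-542-3p: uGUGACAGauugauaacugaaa

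miR-542-5p: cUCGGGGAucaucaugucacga

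The seed of miR-322 was carried by 9 other RefSeq mouse names, among them miR-15a, miR-15b, miR-16, miR-195 and miR-497, which lie on other chromosomes. That of miR-503 shared 6 of 7 bases with it (substitution A8G from miR-322 to miR-503, counted from the 5′ end), and no other RefSeq mouse miRNA had the same 7 bases. The seed of miR-450b-3p was also that of miR-450a-1-3p, from the hairpin next to it. Those strands matched at 20 of 22 positions, with G19A and C20A from miR-450b-3p to miR-450a-1-3p. The probe listed for miR-450a-3p was well above background on 0 of 16 arrays. Cross-hybridisation between these strands was not tested. miR-542-3p shared its seed with 0 other names and miR-542-5p with 1.

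For comparison with miR-322 and miR-503, 3 relatives with the seed of miR-322 are shown, which differ from it outside the seed.

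miR-16: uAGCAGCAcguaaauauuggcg

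miR-195: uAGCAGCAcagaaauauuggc

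miR-497: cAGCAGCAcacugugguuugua

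miR-542 is the only hairpin of the locus from which both strands were members. The hairpin is shown with miR-542-5p and then miR-542-3p in capitals.

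Mir542 hairpin: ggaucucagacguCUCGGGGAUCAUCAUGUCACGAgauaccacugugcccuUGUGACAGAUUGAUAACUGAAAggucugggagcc

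All members but miR-450b-3p had higher group means at day 7 and at day 14 than in the uninjured artery. miR-450b-3p lay above the floor (-5.79, the value that replaced lower scaled signals) at day 7 alone. The courses differed otherwise: the highest group was day 7 for 4 members and day 14 for miR-542-5p, whose day 7 arrays overlapped with the uninjured ones. At day 7 all arrays of the group lay above all uninjured arrays for 4 of 5 members, against 29.6% of all tested miRNAs. The same held for 4 of 5 at day 14, against 27.4%. At day 1 it held for 1 member (31.8%), with 1 member wholly below uninjured (15.3%), and at day 28 for 1 (20.9%). Since the course was the ground for choosing the members, nothing is read from these counts.

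Day 7 against day 1, both on slide 1, had 5 of 5 members wholly higher, against 26.5% of all tested. Day 14 against day 7, on different slides, had 3 of 5 wholly lower (23.1% of all tested) and 1 of 5 wholly higher (12.8%). The higher one was miR-542-5p, by 0.67, and by 0.04 with slide as a block. Among the lower ones miR-450b-3p was at the floor on all day 14 arrays. Day 28 against day 14 had 4 of 5 wholly lower, against 8.72%. The median log2 difference from uninjured over the members was 0 on day 1, 1.35 on day 7, 1.11 on day 14 and 0.18 on day 28. Over all tested miRNAs it was 0.24, 0.0027, 0 and 0.03. These comparisons share the uninjured arrays. With members near the floor set to the lowest change their detection limit allows, the median at day 7 was 0.96.

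**Figure D2:**
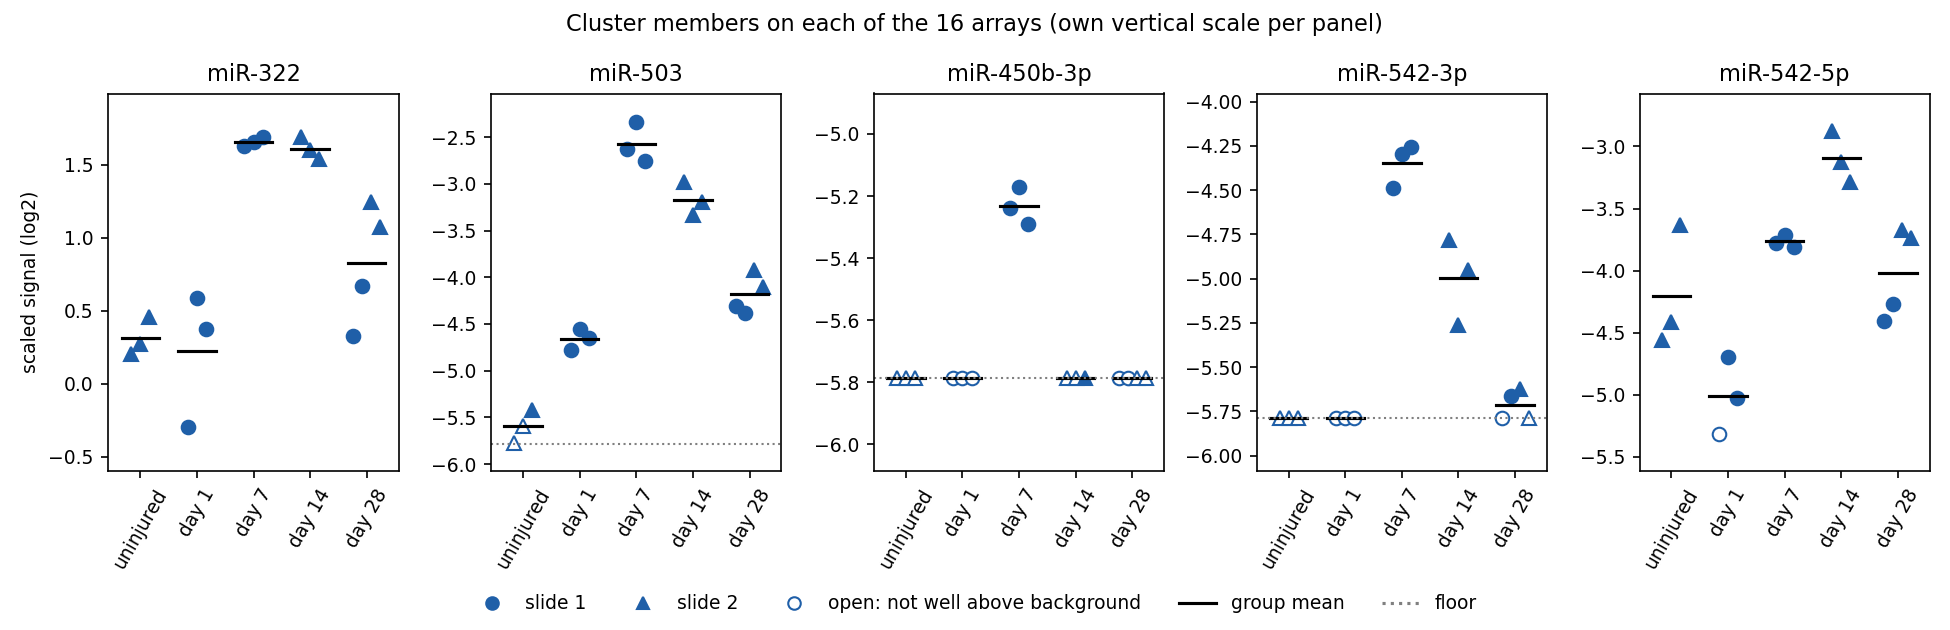
Log2 scaled signal of each member on every array by group, with circles for slide 1, triangles for slide 2, open symbols where the probe was not well above background, a bar for the group mean and a dotted line at the floor. miR-503 was highest at day 7 (mean -2.57), miR-542-5p at day 14 (mean -3.10), and miR-450b-3p lay above the floor of -5.79 at day 7 alone.

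miR-322, the first strand of the locus, was the only member well above background on all 16 arrays. Its scaled signal (log2 of a probe's signal over the 75th percentile of its array) was 0.20, 0.27 and 0.46 on the uninjured arrays and -0.30, 0.59 and 0.38 at day 1. It was 1.63, 1.65 and 1.69 at day 7 and 1.69, 1.61 and 1.54 at day 14. The day 28 arrays gave 0.33, 0.67, 1.24 and 1.07. The day 7 and day 14 arrays overlapped with each other and lay above every array of the other groups. The day 1 and uninjured arrays overlapped, and day 28 overlapped with both.

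miR-322 was 2.55-fold higher at day 7 than in the uninjured group (log2 difference 1.35 ± 0.24 SE) and 2.46-fold higher at day 14 (1.30 ± 0.24 SE). At day 28 the difference was 0.52 ± 0.22 SE, and at day 1 it was -0.09 ± 0.24 SE. With slide as a block the day 7 difference was 2.01 ± 0.30 SE and that of day 28 was 0.85. The day 1 value turned to 0.57 with the block and also turned positive, at 0.17, without day 1 replicate 1, the lowest array. Within slide 1, day 7 exceeded day 1 by 1.44. Within slide 2, day 28 lay 0.45 below day 14 on the log2 scale, against a difference of -0.78 over both slides.

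Both of its probes were higher at day 7 and day 14 than without injury, but they differed in how those days compared. On the brighter probe the days overlapped, whereas on the dimmer one the day 7 arrays (0.45 to 0.77) lay wholly above those of day 14 (-0.12 to 0.18). The dimmer one, used as an alternative after the data had been seen, gave differences from uninjured of 0.54 on day 1, 1.84 on day 7, 1.27 on day 14 and 0.75 on day 28. The ratio of the brighter to the dimmer probe ran from 1.73 to 2.37 on slide 1 and from 2.68 to 3.30 on slide 2. The ranges did not overlap. In the day 28 group, the only one on both slides, the brighter probe was 0.66 higher on slide 2 and the dimmer one 0.28. Over the tested miRNAs the median absolute slide difference in that group was 0.23, and 14.3% differed by at least as much as miR-322. The part of the slide in these values was not tested.

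**Figure D3:**
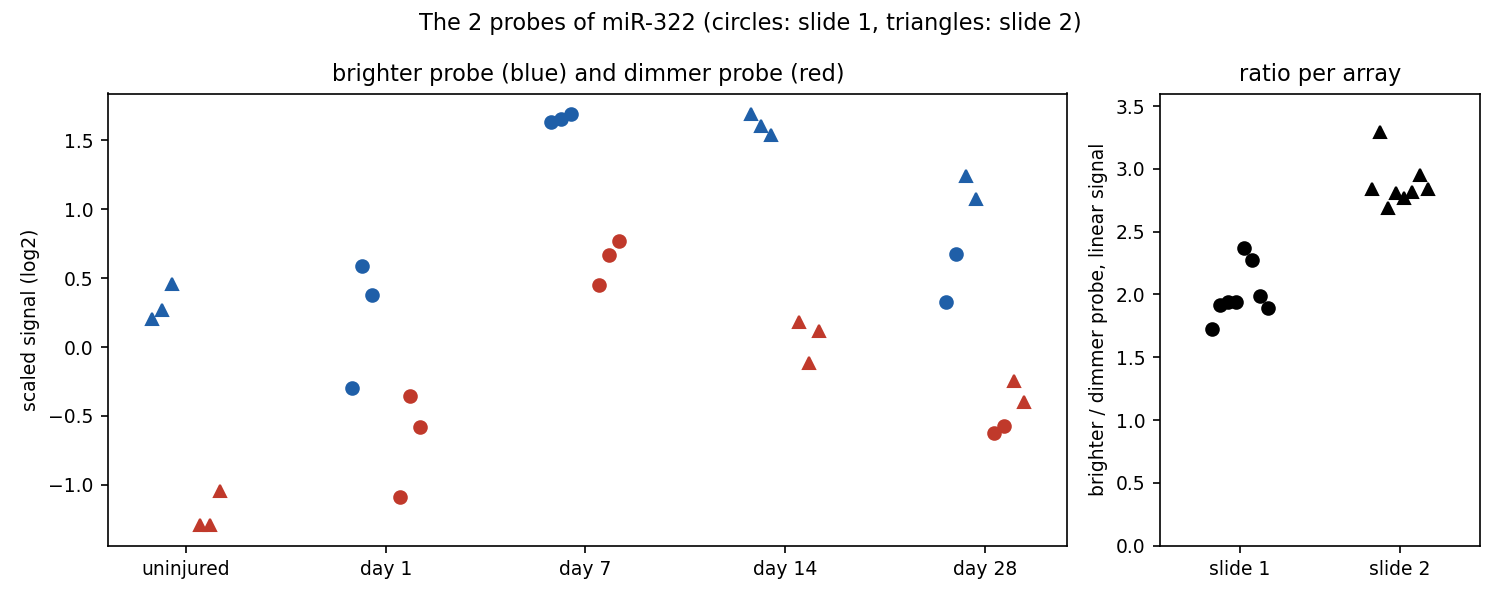
Left, log2 scaled signal of the brighter (blue) and dimmer (red) probe of miR-322 on each array by group; right, the linear ratio of the probes on each array of slide 1 (circles) and slide 2 (triangles). Both probes were high at day 7, and the ratio stayed at or below 2.37 on slide 1 and at or above 2.68 on slide 2.

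miR-503, the neighbour of miR-322 with a related seed, had the widest range of the members on their brightest probes. Its scaled signal was -5.77, -5.59 and -5.42 in the uninjured group, where 1 of 3 arrays was well above background. It was -4.78, -4.56 and -4.65 at day 1, -2.63, -2.33 and -2.75 at day 7, and -2.98, -3.34 and -3.19 at day 14. By day 28 it was -4.31, -4.38, -3.92 and -4.11. No 2 groups overlapped, in the order uninjured, day 1, day 28, day 14, day 7.

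In intensity units the uninjured arrays read 7.33 to 14.6 and the day 7 arrays 149.7 to 196. Because miR-503 was near its detection limit in the control, its folds are bounds: at least 1.49-fold higher on day 1, 6.34-fold on day 7, 4.19-fold on day 14 and 2.08-fold on day 28. The fitted log2 differences were 0.93, 3.02, 2.42 and 1.41 (SE 0.16, and 0.15 at day 28). With slide as a block they were 1.26, 3.35, 2.42 and 1.58. Within slide 1, miR-503 was 4.26-fold higher at day 7 than at day 1. From day 7 to day 14 it was lower by 0.60 ± 0.16 SE on the log2 scale, and by 0.93 with the block. On day 28 it was 2.02-fold lower than at day 14. Its second probe was at the floor on all 16 arrays and well above background on 2, so the values of miR-503 rest on 1 probe.

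miR-542-3p was at the floor on all uninjured and day 1 arrays, with none of them well above background. It was -4.49, -4.29 and -4.25 at day 7 and -4.78, -5.26 and -4.95 at day 14. The day 28 values were -5.79, -5.66, -5.62 and -5.79, with 2 of 4 arrays at the floor. Day 7 lay wholly above day 14, and day 14 wholly above the other groups. It was at least 1.95-fold higher at day 7 than in the uninjured group (fitted difference 1.44 ± 0.12 SE, 1.46 with slide as a block). At day 14 it was at least 1.24-fold higher (0.79 ± 0.12 SE). Its second probe gave 0.76 at day 7, 0.09 at day 14 and 0 at day 28, and was at the floor on 11 of 16 arrays. The day 14 value of miR-542-3p thus rests mainly on its brightest probe.

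miR-542-5p, the other strand of the hairpin, was well above background on 15 of 16 arrays, so its course could be followed in the control as well. Its scaled signal was -4.56, -4.42 and -3.63 in the uninjured group and -5.31, -4.69 and -5.03 at day 1. It was -3.78, -3.71 and -3.81 at day 7 and -2.87, -3.13 and -3.29 at day 14. At day 28 it was -4.41, -4.27, -3.67 and -3.74. The day 14 arrays were above all others and the day 1 arrays below all others. Among the uninjured arrays replicate 3 alone reached the level of day 7, as did day 28 replicates 3 and 4.

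At day 14 miR-542-5p was 2.15-fold higher than in the uninjured group (1.11 ± 0.26 SE), within slide 2. At day 1 it was 1.75-fold lower (-0.81 ± 0.26 SE), with 2 of 3 day 1 arrays well above background. That value was -0.52 without uninjured replicate 3 and -0.18 with slide as a block. The day 7 difference was 0.44 ± 0.26 SE, 0.73 without uninjured replicate 3 and 1.07 with the block. Within slide 1, where no block is needed, day 7 was 2.37-fold higher than day 1 (1.24 ± 0.26 SE), and the log2 difference was 1.11 without day 1 replicate 1. Its second probe gave 0.72 at day 7 and 1.24 at day 14 against uninjured. Its remaining probes, of 4 in all, were at the floor on all 16 arrays and well above background on 0.

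The strands of miR-542 had different highest days. From day 7 to day 14 miR-542-3p was lower by 0.65 ± 0.12 SE, whereas miR-542-5p was higher by 0.67 ± 0.26 SE. Days 7 and 14 were on different slides, and with slide as a block the values were -0.68 and 0.04. In the day 28 group miR-542-5p was 0.63 higher on slide 2 than on slide 1, and miR-542-3p 0.02. Whether day 14 differed from day 7 for miR-542-5p therefore cannot be told apart from the slide.

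miR-450b-3p, at the far end of the locus, was seen least. It was above the floor at day 7 alone, at -5.24, -5.17 and -5.29, or 32.2, 22.7 and 25.8 intensity units. The 4 arrays on which it was well above background were those and day 14 replicate 3, which read 19.9 units, under the floor of 26.0 units that its scale gives. In the uninjured group it read 1.31 to 5.71 units. It was at least 1.05-fold higher at day 7 than in the uninjured group, with a fitted difference of 0.55 ± 0.08 SE, and at least 1.22-fold higher than at day 1. Its second probe gave 0.27 at day 7. Its remaining probes, of 4 in all, were at the floor on all 16 arrays and well above background on 0.

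The 75th percentile ran from 816.2 to 1432 units on the 4 arrays on which miR-450b-3p was well above background and from 401 to 1097 on the other 12, and these ranges overlapped. The part of array brightness in its detection was not tested. The lowest signal called well above background was 10.2 to 14.4 units, depending on the array. So a level of a few units in the other groups was not detectable, and its absence there is not shown.

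**Figure D4:**
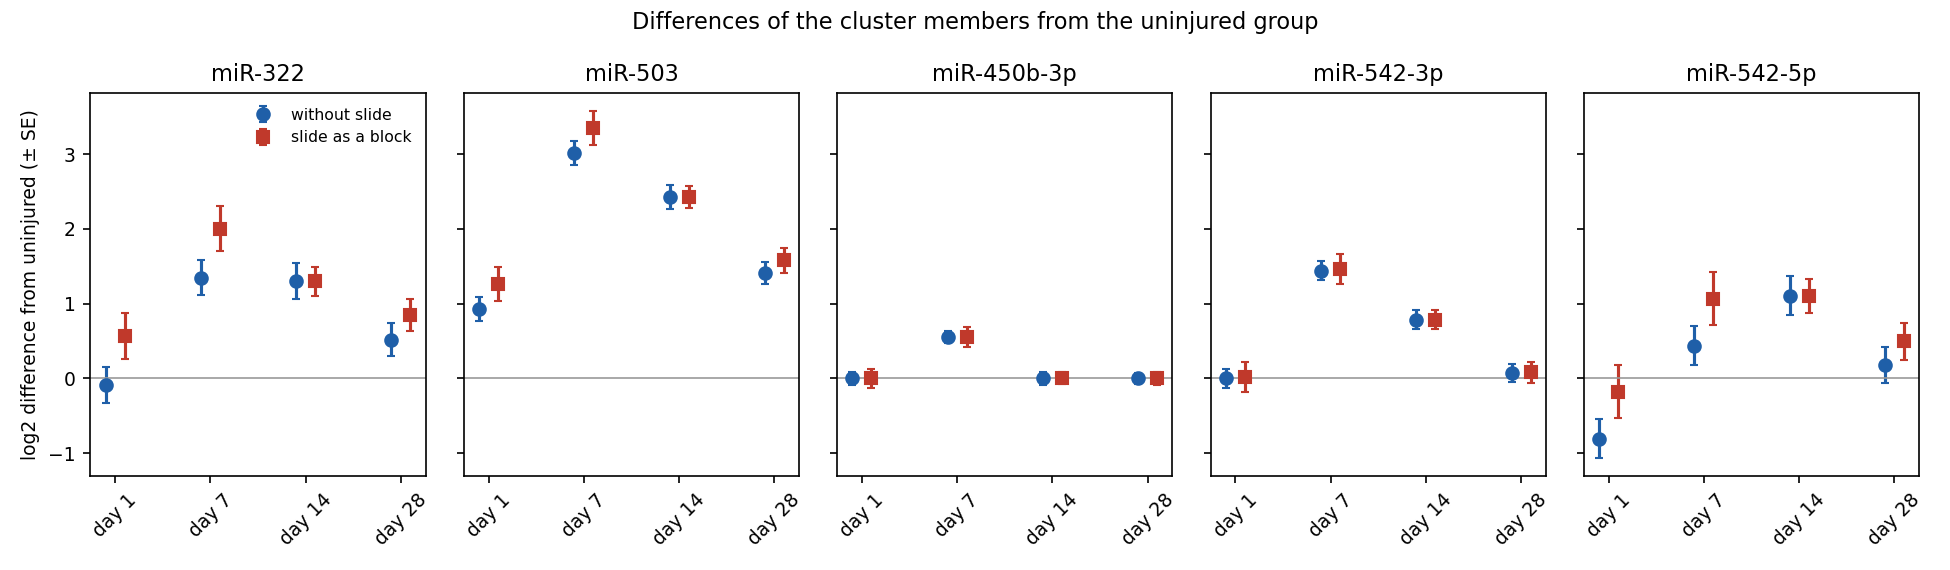
Log2 difference of each member from the uninjured group at day 1, 7, 14 and 28 (± SE from the fit over all tested miRNAs), without slide (blue circles) and with slide as a block (red squares). Day 14 shares its slide with the control and kept its values, whereas miR-322 at day 7 was 1.35 without and 2.01 with the block.

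The other strands of the locus were seen rarely. Of the 7 listed, 6 had a probe, and 5 (miR-322*, miR-351, miR-450a-3p, miR-450b-5p and miR-503*) were well above background on 0 of 16 arrays. miR-450a-5p, from Mir450-1 and Mir450-2, passed the filter through day 7 only and so had to be higher there. It was well above background on 4 arrays, as miR-450b-3p was, and its signal was 27.1, 22.6 and 22.1 units at day 7 and 16.6 on day 14 replicate 3. Its day 7 difference was 0.39 ± 0.10 SE, from which no test is read.

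miR-15a, miR-15b, miR-16, miR-195 and miR-497, which repress through the seed of miR-322, differed among themselves at day 7; their difference from miR-322 was not tested. There limma with Benjamini-Hochberg adjustment called 2 of 5 higher and 2 of 5 lower, against 27.4% and 22.4% of all tested miRNAs. miR-16 rose by 0.69 ± 0.15 SE (adjusted p = 0.00171) and miR-15a by 0.43 ± 0.14 SE (adjusted p = 0.0196). miR-195 fell by 0.78 ± 0.18 SE (adjusted p = 0.00258) and miR-497, its neighbour on chromosome 11, fell by 0.51 ± 0.17 SE (adjusted p = 0.0244). miR-15b was 0.47 higher without passing the test (adjusted p = 0.0855). Their median difference was 0.43 and that of all tested miRNAs 0.0027. The call of miR-15a ended without uninjured replicate 3 (adjusted p = 0.0770), and that of miR-497 without any 1 of 6 arrays (highest adjusted p = 0.0943, without uninjured replicate 1). With slide as a block limma called 0 of 5 at day 7 (2 at an unadjusted p under 0.05), against 28.7% of all tested, and miR-195 and miR-497 were at -0.26 and -0.04. Without scaling they turned to 0.18 and 0.46. From day 7 to day 14 limma called miR-195 and miR-497 higher, by 0.76 and 0.80 (adjusted p = 0.0206 and 0.0160), where it called 10.3% of all tested in either direction, and neither was called with the block (adjusted p = 0.838 and 0.711).

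At day 1 limma called 1 of 5 relatives higher and 2 of 5 lower, where 19.6% of all tested were called higher and 12.8% lower. miR-195 and miR-497 fell by 0.96 and 0.95 (adjusted p = 0.00124 and 9.91e-04), and miR-16 rose by 0.48 (adjusted p = 0.0263). The call of miR-16 ended without any 1 of 4 arrays (highest adjusted p = 0.0796, without uninjured replicate 3). With the block limma called 0 of 5 (1 at an unadjusted p under 0.05), against 9.35% of all tested. Under other scalings without the block, miR-16 turned to -0.15 and -0.17 with a scale over all probes or the median. At day 14, on the slide of the control, limma called 2 of 5 higher and 0 lower (0 lower at an unadjusted p under 0.05 too), against 20.2% and 19% of all tested: miR-15a by 0.47 (adjusted p = 0.0177) and miR-15b by 0.72 (adjusted p = 0.0189). Both were called with the block too, against 40.2% of all tested, and both calls ended without day 14 replicate 1 or uninjured replicate 3 (adjusted p = 0.0685 to 0.0755). At day 28 it called 3 of 5 higher, miR-15a, miR-15b and miR-16, by 0.54 to 0.61 (adjusted p = 0.00663 to 0.0466), and 0 lower (0 at an unadjusted p under 0.05), against 16.8% and 9.35% of all tested. The call of miR-15b ended without any 1 of 9 arrays (highest adjusted p = 0.217, without uninjured replicate 3), and miR-497 was called without any 1 of 4 others (lowest adjusted p = 0.0199, without day 28 replicate 1). With the block, which called 17.1% of all tested, miR-195 and miR-497 were called there too (0.58 and 0.68, adjusted p = 0.0202 and 0.00796), and miR-15b was not.

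**Figure D5:**
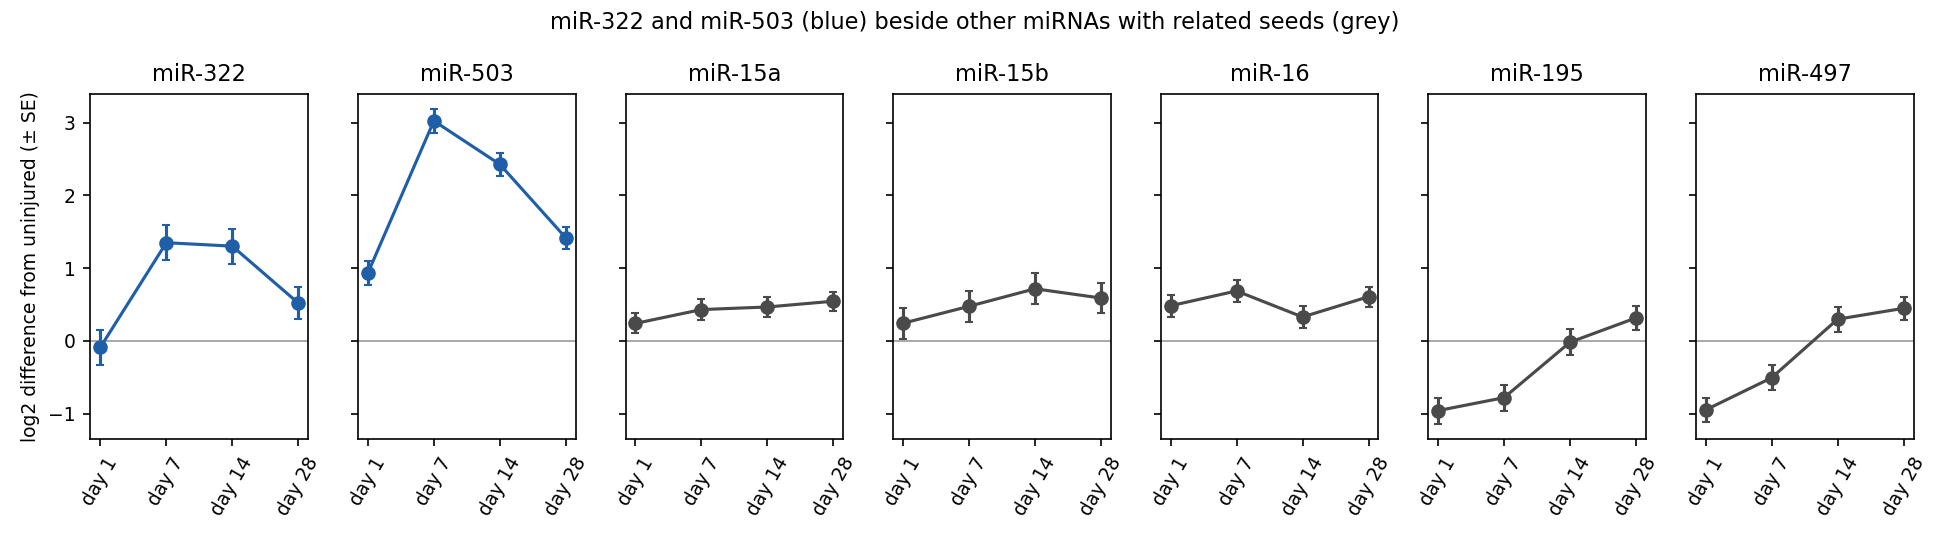
Log2 difference from uninjured (± SE) at day 1, 7, 14 and 28 for miR-322 and miR-503 (blue) and for 5 miRNAs with the seed of miR-322 (grey). At day 7 miR-503 stood at 3.02 and miR-322 at 1.35, the relatives between -0.78 and 0.69.

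The miR-106a cluster, another miRNA cluster of the X chromosome, ends 305 kb from Mir450b. Of its 4 listed miRNAs 3 had a probe. miR-20b was the only one tested and was higher at day 1 by 0.84 ± 0.26 SE (limma, adjusted p = 0.0256), but not with slide as a block (adjusted p = 0.770) or without any 1 of 5 arrays (highest adjusted p = 0.0625, without day 1 replicate 2). At day 7 its difference was 0.62 (adjusted p = 0.0600), and it was called without day 28 replicate 2 or day 14 replicate 1 (adjusted p = 2.97e-04 and 0.0495). At day 14 it was 0.19. miR-18b was well above background on 7 arrays and miR-363 on 1.

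The tested miRNAs nearest to the members' course were found by the root mean square distance of their 4 differences from the members' medians, among 316 candidates. They were miR-411 (distance 0.21), miR-376c (0.28), miR-675-3p (0.29), miR-379 (0.30), miR-136 (0.31) and miR-434-5p (0.34). The medians come from the members themselves, so the members' own distances were partly fixed in advance. For scale, miR-542-3p lay at 0.17, miR-322 at 0.20, miR-542-5p at 0.61, miR-450b-3p at 0.69 and miR-503 at 1.32. So 3 of the 5 members lay farther from the medians than each of these 6. All but miR-675-3p are on chromosome 12, and miR-675-3p is on chromosome 7. miR-675-3p was well above background on 7 of 16 arrays and at the floor on 8. It passed the filter only through day 7 and day 14, where it was high, so its nearness was partly fixed in advance. miR-379 was 1.74 higher at day 7 and 1.21 at day 14, and miR-411 was 1.46 and 0.91. All these differences share the uninjured arrays with the members' medians.

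Marker miRNAs of other cells moved over the same days. The summed scaled signal of 5 leukocyte miRNAs was 1.60 to 1.97 without injury. It was 25.6 to 28.3 on day 1, 13.1 to 17.4 on day 7, 10.3 to 16.2 on day 14 and 8.57 to 11.9 on day 28. limma called 4 of the 5 higher at each day. Over all tested miRNAs it called 19.6% higher and 12.8% lower at day 1, 27.4% and 22.4% at day 7, 20.2% and 19% at day 14, and 16.8% and 9.35% at day 28. The marker calls here and below are given without slide as a block, and day 1 and day 7 were on a different slide from the control.

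The summed signal of 3 smooth muscle miRNAs was 3.53 to 6.37 without injury, 2.94 to 5.14 on day 1, 1.54 to 1.80 on day 7, 1.05 to 1.10 on day 14 and 1.89 to 2.08 on day 28. Of the 2 tested, limma called 0 at day 1 (0 at an unadjusted p under 0.05) and both lower at each later day. Of 3 fat-associated miRNAs the sum was 8.37 to 11.5 without injury, then 3.57 to 6.71, 2.07 to 2.77, 2.47 to 2.70 and 2.88 to 5.05 on the 4 days in turn, with 1, 2, 3 and 2 called lower. For 4 neuronal miRNAs it was 0.841 to 2.03 without injury, then 1.32 to 2.89, 0.105 to 0.162, 0.0263 to 0.569 and 0.336 to 0.828. All 3 tested were lower at day 7 and day 14, and limma called 0 at day 1 and 0 at day 28 (0 and 1 at an unadjusted p under 0.05).

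For 4 striated muscle miRNAs the sum was 7.97 to 12.2 without injury, then 5.68 to 19.5, 3.86 to 7.25, 3.63 to 6.55 and 2.46 to 5.24, with 0 (0 at an unadjusted p under 0.05), 1, 2 and 3 called lower by limma. The endothelial sum was 9.68 to 10.3 without injury, then 7.04 to 9.81, 12.3 to 15.4, 12.2 to 13.9 and 11.2 to 15.7. Its 1 tested strand was called higher by limma at day 7, and 0 were called at day 1, day 14 and day 28 (0, 1 and 1 at an unadjusted p under 0.05). For 3 erythroid miRNAs it was 16.3 to 42.9 without injury, then 27.7 to 63.0, 15.1 to 27.7, 15.2 to 25.0 and 25.0 to 41.6. limma called 0 of them at any day (1 at an unadjusted p under 0.05 at day 7, and 0 at the other days). The part of these cells in the members' values was not tested.

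Measurement error within an array was smaller than these differences for the brighter members. The median coefficient of variation over the spots of a probe was 7.04% for miR-322, 8.07% for miR-503, 10.2% for miR-542-5p, 11.2% for miR-542-3p and 13.3% for miR-450b-3p. No spot of a member was saturated. Between arrays of a group, the number of arrays limits the precision.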

How the data were processed

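Each artery was measured on 1 Agilent 1-colour array. The deposited intensity values are spot signals after the authors' background handling in Feature Extraction 9.5.1.1, per the file headers. The authors' deposited value table is on the intensity scale too, and 80 of 80 member values differed by under 0.1% from the scanner files' total gene signal.

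The linear signal of unmarked spots was averaged per probe, which counted as well above background when at least 50% of those spots did. Signals were expressed relative to the 75th percentile of each array over 395 mouse probes detected on all 16 arrays. A floor of 0.0181, the middle value among the arrays' lowest detected scaled signals, replaced smaller values before log2 (floor -5.79). The brightest probe stood for a miRNA. Tested were 321 of 611 miRNAs, those well above background on every array of a group, with limma 3.58.1 in R 4.3.3: 1 model over 5 groups, no covariate, Benjamini-Hochberg adjustment, called at adjusted p under 0.05. Standard errors of the members come from that fit. Where a group is at the floor, its values do not vary, which lowers the pooled spread behind the SE. The fit also draws each miRNA's spread toward that of all tested miRNAs. The SE of a member often at the floor is thus not a spread measured on its other arrays alone. An "at least" fold takes undetected arrays at their detection limit.

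The members, lists and tests were chosen with earlier results of these data known. Named were all members, the other strands of the locus, miRNAs with the seed of miR-322, the miR-106a cluster, the 6 miRNAs nearest in course, and markers that moved with a result. The series text names separate animals in each group; whether the uninjured arteries came from mice of their own is not given in the sources used here. Old unstarred names were read as the 5p strand of the RefSeq entry. Alternatives were other scalings, normexp background, floors, filters, probe rules, the value table, slide and replicate blocks, and each array left out in turn; the second probe of miR-322 was added after seeing the data. The pipeline was tested on simulated data.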

Additional observations from a re-analysis of the deposited data

Results flagged for a closer look

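On single arrays of the day 28 group, 4 of the 18 named miRNAs with any spread there stood apart from the rest in scaled signal. miR-20b was 0.30 on day 28 replicate 2, against -0.95 to -0.83 on the other 3 arrays; chance sets apart about 1 in 20 such groups. miR-363 was -4.35 on the same array and at the floor on the others. miR-18b was -5.35 on day 28 replicate 1 and miR-675-3p was -5.45 on day 28 replicate 4, each with the other arrays at the floor. In intensity units neither array stood apart. miR-18b read 16.3 on replicate 1, 18.4 on replicate 2 and 16.6 on replicate 3, each well above background. miR-675-3p read 13.0 on replicate 4, not well above background, and 12.6 on replicate 3. For miR-363, miR-18b and miR-675-3p any value above the floor is set apart, so the rate of 1 in 20 does not apply. None of the 5 members stood apart in this way.

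miR-542-5p was below all uninjured arrays at day 1 and above all of them at day 14, a gap of 1.91 on the log2 scale between the days; this difference was not tested, and the days were on different slides. miR-450a-5p was 0.39 higher at day 7 than at day 1 and differed by -0.39 from day 7 to day 14. It was tested only because it was detected at day 7, so it had to be highest there and no test is read from these values. miR-195 was 0.76 higher at day 14 than at day 7 (limma, adjusted p = 0.0206), and 0.24 with the block (adjusted p = 0.838). miR-497 was 0.80 higher (limma, adjusted p = 0.0160), and 0.34 with the block (adjusted p = 0.711).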

How the results depend on the processing

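The members' median difference from uninjured at day 7 and day 14 was positive under each alternative run, but not that of each member. With normexp miR-542-5p was -0.07 at day 7, and at day 14 miR-542-3p was -0.007 and miR-450b-3p -0.09. With a floor 2 times as high miR-450b-3p was 0 at day 7. miR-322 and miR-503 stayed positive on both days, at 1.05 and 0.48 or more. At day 7 the median was 1.96 without scaling or from the value table and 1.10 over the mean of probes. It was 0.44 with the higher floor and 0.14 with normexp, whose offset of 50 exceeds the signal of miR-450b-3p on every array. At day 14 it was 1.77 without scaling, 0.59 over the mean of probes and 0.18 with normexp. At day 28 it was 0.82 without scaling, 0.52 with a floor 0.5 times as high, 0.49 with slide as a block (with either probe of miR-322) or within slide 2, and -0.12 with normexp. At day 1 it was 0.31 with the lower floor and 0.36 from the value table. For day 7 against day 1 it was 1.71 and 1.74 with the scale over all probes and the median, 1.97 without scaling, 1.05 over the mean of probes, 0.99 with the higher floor and 0.33 with normexp. For day 14 against day 7 it was -0.86 without scaling, -0.30 over the mean of probes, -0.15 with normexp and -0.048 with the higher floor. For day 28 against day 14 it was -0.46 over the mean of probes, -0.45 with normexp and -0.99 from the value table. Leaving out 1 array gave 1.19 (day 1 replicate 1) to 1.48 for day 7 against day 1, 0.95 to 1.38 (uninjured replicate 3) at day 14, and 0.064 (day 28 replicate 3) to 0.47 (uninjured replicate 3) at day 28. miR-16 at day 1 reversed to -0.15 and -0.17 with the scale over all probes and the median, under which the median of all tested went from 0.24 to as low as -0.34; miR-195 and miR-497 at day 7 reversed to 0.18 and 0.46 without scaling, which put the median of all tested at 0.86. The count of other strands of the locus called at day 7, 1 (miR-450a-5p, which the filter let through by its day 7 level), became 0 with normexp, the stricter filter, the higher floor or any slide block, and the value table called 1 at day 1, day 14 and day 28. Over all tested miRNAs the count called at day 1, 104, ran from 10 (replicate and slide blocks) to 120, at day 7 from 45 to 163 (160), at day 14 from 72 to 133 (126) and at day 28 from 21 to 94 (84). Replicate numbers did not pair the arrays: over 30 pairs with the same number r was -0.45 to 0.56, and 4 of 16 arrays correlated best with their own number. With replicate number as a block the members' medians were 1.35 at day 7, 1.11 at day 14 and 0.09 at day 28, and with slide as well 1.49, 1.11 and 0.45. The causes of these shifts were not tested. Dim signal limits miR-450b-3p and miR-542-3p most, and miR-503 in the control.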
